A study of Mus musculus with 2 samples.

Results

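The 6 receptor genes for the colony-stimulating factors and the related FLT3 ligand were followed across the leukocytes of AT3 mammary tumors: Csf1r, Csf2ra, Csf2rb, Csf2rb2, Csf3r and Flt3. These 6 genes were chosen by name from the 32285 genes listed, and all 6 had unique molecular identifier (UMI) counts in both libraries. A library came from Pgd fl/fl mice, called WT in the labels, and another from Pgd fl/fl LysM Cre mice, called 6PGDKO, and each pooled the tumors of 10 female mice, 6 to 12 weeks old, on day 30 after AT3 cells, a mouse mammary carcinoma line, were placed in the mammary fat pad. Live CD45+ leukocytes were sorted, although the labels also name CD11b+ cells, and T and B cells were found in both libraries. Both genotypes carried the floxed Pgd allele, which encodes 6-phosphogluconate dehydrogenase of the pentose phosphate pathway. Cre was expressed from the lysozyme gene Lyz2, which is active in macrophages, monocytes and neutrophils, so that lymphocytes and tumor cells should have kept the gene. With 1 pooled library per genotype there was no replicate, no test between genotypes was possible, and every interval given here covers counting error only.

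Colony-stimulating factors are cytokines that drive the production, survival and activation of myeloid cells. CSF1R is a receptor tyrosine kinase for CSF1 and IL-34 and is the survival receptor of most macrophages. FLT3 is a kinase of the same family, and its ligand supports dendritic cell development. The receptor for GM-CSF pairs a ligand-specific alpha chain, CSF2RA, with the common beta chain, CSF2RB, which IL-3 and IL-5 also use through the alpha chains IL3RA and IL5RA. Mice carry an additional beta chain gene, Csf2rb2, whose product serves IL-3. CSF3R binds G-CSF and is the receptor that defines granulocyte production. In tumors, CSF1 and GM-CSF are known for their actions on macrophages and monocytes, and G-CSF for its action on neutrophils.

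In GRCm38.p6, Csf3r spans chromosome 4 from 126023441 to 126044975, Flt3 chromosome 5 from 147330741 to 147400489, and Csf2ra chromosome 19 from 61217191 to 61228461. Csf2rb2 (chromosome 15, 78282507 to 78305721) and Csf2rb (78325800 to 78351001) are neighbours with 20078 bases between them and are near-identical copies in parts of their sequence, so how reads were divided between them is uncertain. The bases before the start sites of Csf2rb2 and Flt3 are shown because these genes had unlike patterns over the myeloid cell types, the former found in all myeloid types and the latter led by dendritic cells. Each is the 250 bases before the start site in RefSeq, GRCm38.p6, read 5′ to 3′ along the gene on the minus strand, Csf2rb2 at chr15:78305722-78305971 and Flt3 at chr5:147400490-147400739. Capitals mark GAGGAAG, the word that the myeloid factor PU.1 can bind, or its reverse complement.
Csf2rb2: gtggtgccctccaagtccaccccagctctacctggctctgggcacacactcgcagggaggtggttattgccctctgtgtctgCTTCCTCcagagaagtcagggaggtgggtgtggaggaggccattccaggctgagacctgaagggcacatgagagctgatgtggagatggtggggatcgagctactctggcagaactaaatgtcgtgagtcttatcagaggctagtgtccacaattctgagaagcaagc
Flt3: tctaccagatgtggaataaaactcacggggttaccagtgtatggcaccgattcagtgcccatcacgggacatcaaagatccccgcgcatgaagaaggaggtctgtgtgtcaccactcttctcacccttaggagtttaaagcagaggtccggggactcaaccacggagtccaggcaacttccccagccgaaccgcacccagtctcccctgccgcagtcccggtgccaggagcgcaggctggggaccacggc

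The word GAGGAAG was searched on both strands. In Csf2rb2 its reverse complement, CTTCCTC, began 168 bases before the start site, and the Flt3 window held neither. The windows of Csf3r and Csf2ra, which are not shown, also held GAGGAAG. By the gene spans given above, that of Csf3r lay inside the gene and that of Csf2ra partly overlapped it. Of 32851 RefSeq promoter windows of the same length, 10.6% held the word. TTGCNNAA, a word of the C/EBP family (9.56% of windows), and TGTGGTT, a RUNX word (4.4% of windows), were in neither of the windows shown. These are matches of letters and not measured binding.

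The WT library held 3728 barcodes and 27245625 UMIs, of which 3565 cells passed the filter on genes and mitochondrial share, and the 6PGDKO library held 3014 barcodes and 28827045 UMIs, of which 2798 cells passed. No barcode was shared. The median depth was 5554 UMIs per cell in WT and 7926 in 6PGDKO. Cells were clustered without the 6 receptor genes and named only from marker lists that do not hold them, so each name below means cells like that type. The 8 myeloid groups held 461 and 361 C1q macrophages (WT and 6PGDKO), 73 and 97 cycling C1q macrophages, 106 and 235 classical monocytes, 54 and 71 neutrophils, 57 and 85 mature dendritic cells (DCs), 32 and 37 cDC1, 102 and 147 Langerhans-like cells, and 48 and 62 cells of a subcluster led by Gpnmb and Mmp12 that was left unnamed. Myeloid subclusters that also carried T or B cell transcripts (204 and 371 cells) and unnamed clusters with T cell markers (515 and 371 cells) were kept out of these groups. The former held 25% of all Csf1r UMIs and 5.23% of those of Flt3. The unnamed clusters had Cd8a, a gene of CD8 T cells, among their leading genes, so values for T cells below leave out these cells. Pgd in C1q macrophages was 110 UMIs per 1000000 UMIs of the type (CPM) in WT and 27.8 in 6PGDKO, a log2 ratio of -1.99 (95% interval -2.30 to -1.68), and over the other myeloid types the ratio ran from -2.27 in the Gpnmb-led cells to -0.29 in cDC1. In T cells Pgd was 26.7 and 31.5 CPM, and in ILC and NK cells 47.6 and 36.3. In epithelial-like cells it was lower in 6PGDKO, at 56.2 and 33.0 CPM, a ratio of -0.77 (-1.39 to -0.14). Lyz2, the gene in which the Cre sits, was 3460 and 12.6 CPM in C1q macrophages.

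Csf1r, on chromosome 18, was highest in macrophages and monocytes. In WT its level was 521 CPM in C1q macrophages (95% Poisson interval 501 to 542, from 2513 UMIs), 401 in the Gpnmb-led cells (356 to 450), 389 in classical monocytes (351 to 430) and 353 in cycling C1q macrophages (321 to 388). The last 3 neighbours in this order had overlapping intervals, while the C1q macrophages stood above them. Langerhans-like cells had 260 CPM (233 to 290) and neutrophils 182 (115 to 273), and below them came cDC1 with 32.2 and mature DCs with 30.9 CPM. In T cells the level was 5.67 CPM in WT and 8.72 in 6PGDKO, and in B cells 7.02 CPM in WT. The 6PGDKO library kept the same 4 groups at the top, with 577 CPM in C1q macrophages (553 to 601), 499 in the Gpnmb-led cells, 383 in classical monocytes and 285 in cycling C1q macrophages.

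Within the C1q macrophages the Csf1r level varied little. The subclusters led by Hes1 and Ccl12, by Vcam1 and Cxcl2, and by Ccl8 and Lyz2 had 526, 518 and 505 CPM in WT, and 561, 601 and 559 CPM in 6PGDKO. The classical monocytes were less even. The small subcluster led by Ace and Chil3, genes of patrolling and classical monocytes, had 520 CPM in both libraries, beside 367 and 362 in the main monocyte subcluster led by Plac8 and Ly6c2.

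Thinned to 1500 UMIs per cell, Csf1r was seen in 218 of 450 C1q macrophages of WT, 48.4% (95% Clopper-Pearson interval 43.7% to 53.2%), and in 181 of 346 of 6PGDKO, 52.3% (46.9% to 57.7%). Without thinning it was seen in 92.2% of both. The background, the share in T cells, was 0.960% in WT and 1.30% in 6PGDKO after thinning, from cells of 4514.5 and 4669 median UMIs beside 10480 and 10896 in C1q macrophages. After thinning, mature DCs had Csf1r in 2 of 57 WT cells and 0 of 84 6PGDKO cells. The 0 allows up to 3.57% of cells with a UMI at that depth and sets no limit on cells that express the gene, and without thinning 6 of 57 and 10 of 85 mature DCs had a UMI. The share in neutrophils was 25% in WT and 13% in 6PGDKO after thinning, and 29.6% and 14.1% without it, from 23 and 14 Csf1r UMIs. Macrophage markers moved with it. The 10 markers together were 2509 CPM in the WT neutrophils and 956 in those of 6PGDKO. Their part in the Csf1r difference was not tested.

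Csf2ra, the alpha chain that binds GM-CSF, was found in every myeloid type. C1q macrophages were highest in WT with 455 CPM (436 to 475), and the 5 groups that followed, from cycling C1q macrophages (318) through neutrophils (309), Langerhans-like cells (300) and Gpnmb-led cells (289) to classical monocytes (226), each overlapped with the next. cDC1 had 209 CPM (171 to 253), which overlapped with classical monocytes, and mature DCs stood below them with 120 (96.1 to 147). In 6PGDKO the values were 414 in C1q macrophages, 374 in neutrophils, 242 in cycling C1q macrophages, 241 in Langerhans-like cells and 135 in mature DCs. T cells had 11.8 and 16.4 CPM. The thinned share of cells with a UMI was 51.1% of WT and 43.1% of 6PGDKO C1q macrophages, and 90.02% and 84.8% without thinning, beside 1.40% and 2.31% of T cells after thinning.

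Csf2rb, the common beta chain, had another order. Mature DCs were highest in WT with 434 CPM (388 to 484, from 323 UMIs), followed by neutrophils with 372 (273 to 495), Langerhans-like cells with 313 (283 to 345), Gpnmb-led cells with 302 and classical monocytes with 295, each overlapping with its neighbour. C1q macrophages stood lower with 242 CPM (228 to 256), then cDC1 with 181 and cycling C1q macrophages with 144 (124 to 167). In 6PGDKO neutrophils had 472 CPM (372 to 589), Langerhans-like cells 364, classical monocytes 353, mature DCs 346 and C1q macrophages 252. The C1q macrophages were not uniform for this chain. The Vcam1- and Cxcl2-led subcluster had 318 CPM in WT and 355 in 6PGDKO, the Hes1- and Ccl12-led subcluster 189 and 198, and the shallow Ccl8- and Lyz2-led subcluster 60.3 and 68.7, from 16 and 15 UMIs. The same order held in both libraries with intervals that did not overlap between the 3 subclusters. The thinned share was 45.6% of mature DCs in WT and 34.5% in 6PGDKO, against 89.5% and 91.8% without thinning.

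Csf2rb2, the mouse beta chain for IL-3, was found in all 8 myeloid types. In WT it ran from 48.5 CPM in cycling C1q macrophages to 107 in Gpnmb-led cells, whose intervals did not overlap (37.1 to 62.4 and 84.5 to 134), while each of the 7 groups in that span overlapped with its neighbour in the order. cDC1 came next with 30.1 CPM (16.9 to 49.7, overlapping with cycling C1q macrophages) in WT and 36.7 (22.7 to 56.1) in 6PGDKO. T cells had 2.30 and 6.81 CPM.

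Csf3r was a neutrophil gene with a lower tail in monocytes and macrophages. Neutrophils had 958 CPM in WT (795 to 1144, from 121 UMIs) and 1231 in 6PGDKO (1067 to 1414, from 201 UMIs). Their thinned share was 34 of 48 cells in WT, 70.8%, and 51 of 69 in 6PGDKO, 73.9%, and 85.2% and 87.3% without thinning. Classical monocytes had 55.4 and 39.0 CPM, C1q macrophages 46.5 and 40.1, and Gpnmb-led cells 42.3 and 33.5. Within the monocytes, the Ace- and Chil3-led subcluster had 128 CPM in WT (76.0 to 203) and 93.1 in 6PGDKO (61.3 to 135), above the 43.4 and 30.9 of the main subcluster. DCs were nearly devoid of it, with 1 and 6 UMIs in mature DCs, 0 and 1 in cDC1, and 1 and 3 in Langerhans-like cells. T cells held 19 UMIs in WT and 1 in 6PGDKO. Of the 19, 78.9% lay in 5 cells.

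Flt3 was highest in DCs, and was among the 10 leading genes of the cDC1 subcluster although it was not used to build it. cDC1 had 151 CPM in WT (119 to 189, 75 UMIs) and 169 in 6PGDKO (137 to 207, 97 UMIs), and mature DCs 118 (94.9 to 146, 88 UMIs) and 113 (95.1 to 134, 139 UMIs), with overlapping intervals in WT. Langerhans-like cells had 18.7 and 26.4 CPM, classical monocytes 19.1 and 14.5, and cycling C1q macrophages 9.55 and 22.3, and in WT these 3 overlapped with each other. B cells of WT (7.46 CPM, 17 UMIs) overlapped with the cycling C1q macrophages and not with Langerhans-like cells. C1q macrophages held 4 UMIs in WT and 0 in 6PGDKO, and neutrophils and Gpnmb-led cells 0 in both. Without thinning, 90.6% and 91.9% of cDC1 and 73.7% and 72.9% of mature DCs had a UMI. Thinned, the shares were 12.5% and 27.0% of cDC1 and 15.8% and 13.1% of mature DCs. In C1q macrophages the thinned share was 0 of 450 in WT and 0 of 346 in 6PGDKO, which allows up to 0.667% and 0.867% of cells with a UMI at that depth and sets no limit on expressing cells. Without thinning, 3 of 461 and 0 of 361 had a UMI.

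**Figure D1:**
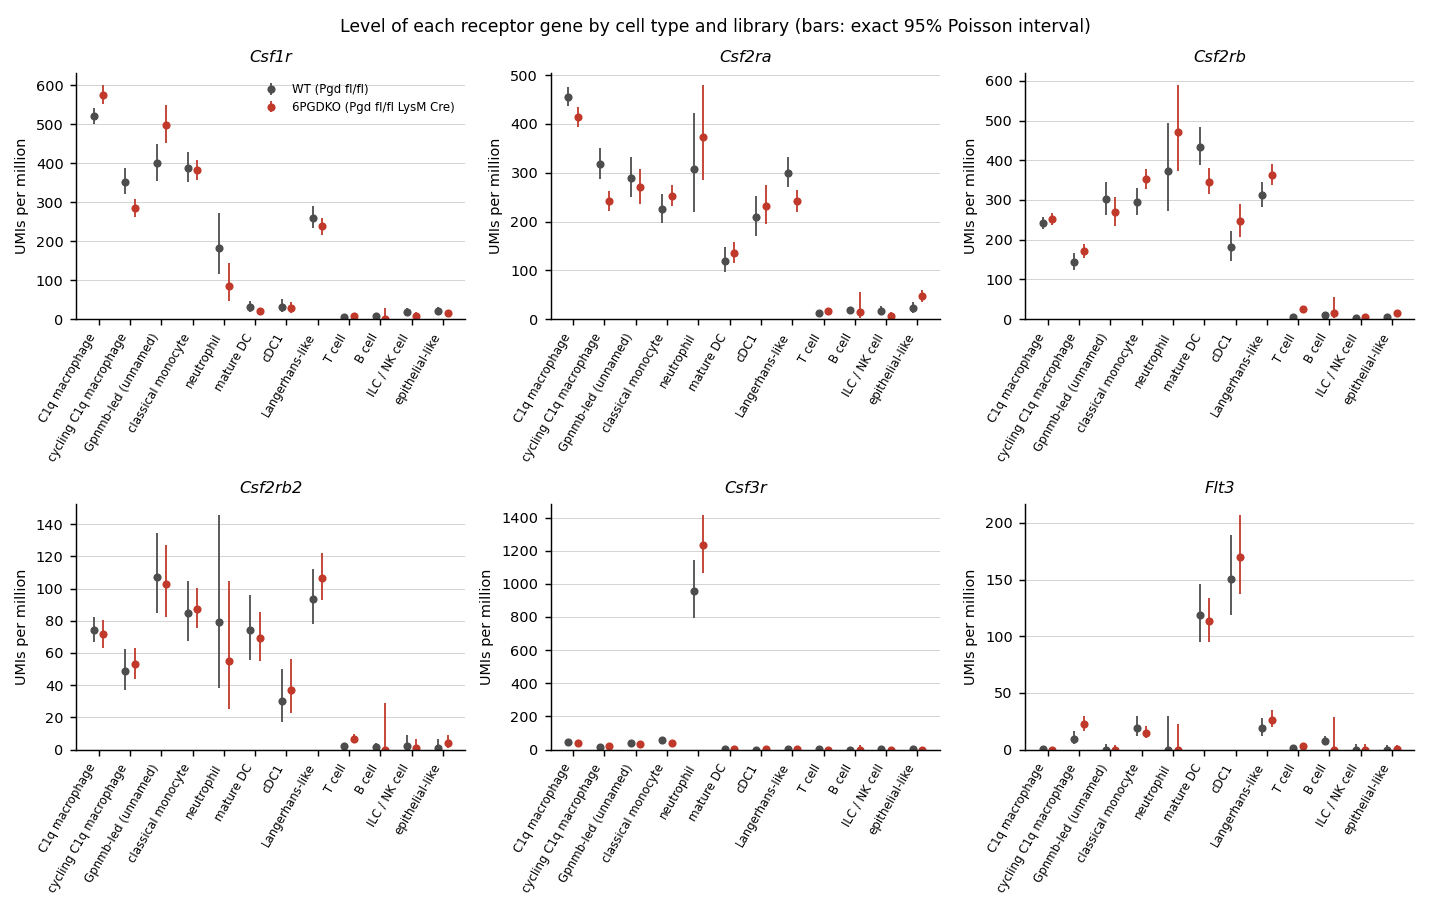
Level of each receptor gene in CPM (linear axis, own scale per panel) in 12 cell types of the WT library (grey) and the 6PGDKO library (red), with exact 95% Poisson intervals. Csf3r stands out in neutrophils (958 and 1231) and Flt3 in cDC1 (151 and 169) and mature DCs (118 and 113), while Csf2ra, Csf2rb and Csf2rb2 are spread over all 8 myeloid types.

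The plot of levels by cell type shows these orders side by side. Levels of different genes are not compared with each other here.

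**Figure D2:**
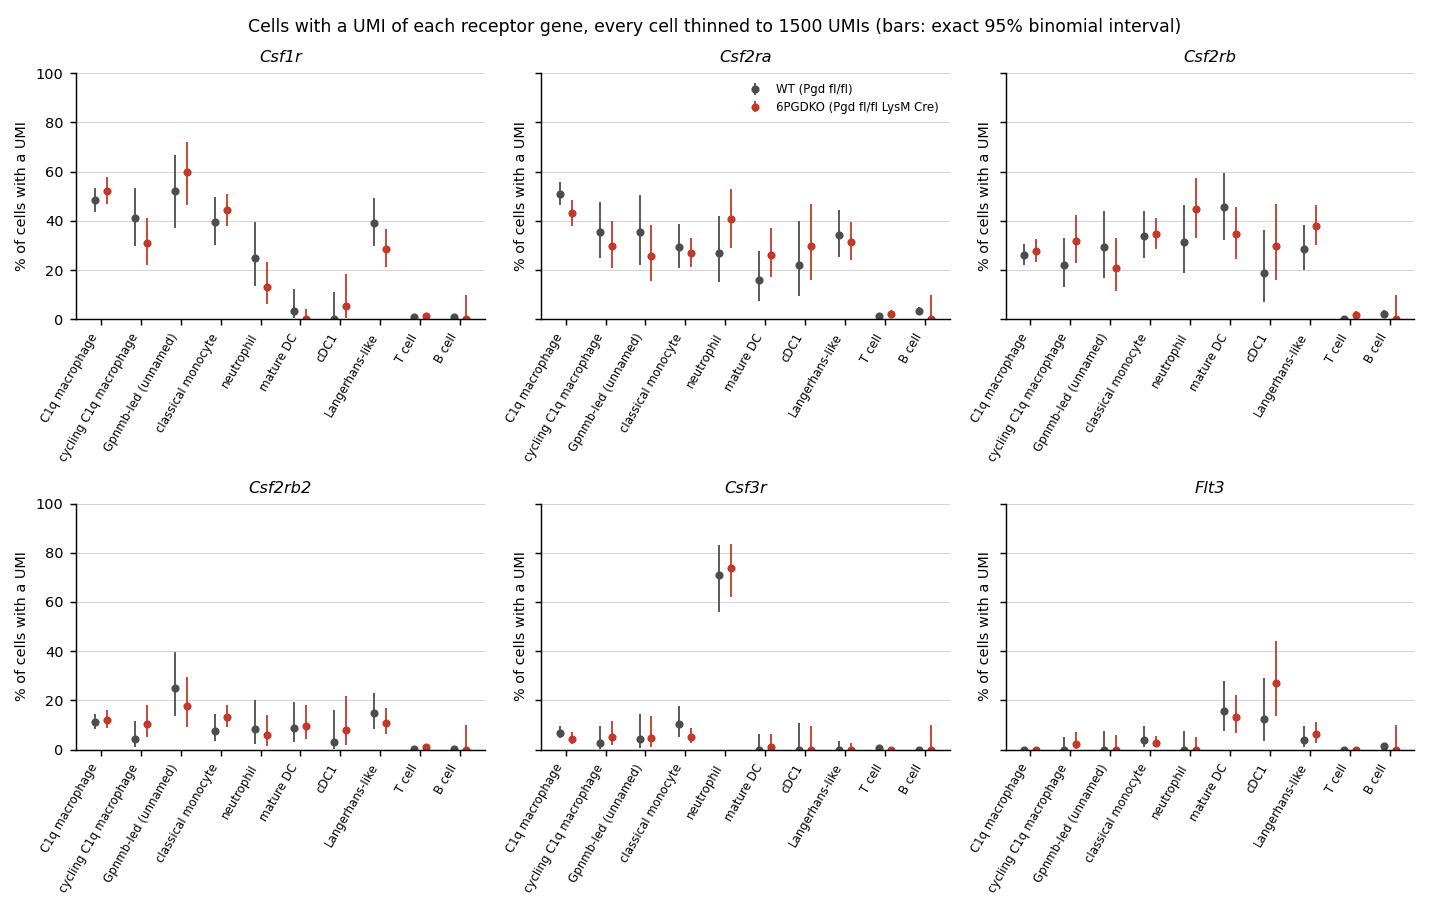
Percent of cells with at least 1 UMI of each receptor gene after every cell was thinned to 1500 UMIs, in the 8 myeloid types, T cells and B cells, with exact 95% binomial intervals (WT grey, 6PGDKO red). T cells lie at or below 2.31% for all 6 genes, and the widest gap above that background is Csf3r in neutrophils (70.8% and 73.9%).

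GM-CSF is sensed by cells that make both chains, and the share of alpha to beta chain UMIs differed between cell types. The ratio of Csf2ra to Csf2rb UMIs in WT was 2.20 (95% interval 1.84 to 2.64) in cycling C1q macrophages, 1.88 (1.75 to 2.02) in C1q macrophages, 1.16 in cDC1, 0.958 in Gpnmb-led and in Langerhans-like cells, 0.830 in neutrophils, 0.765 in classical monocytes and 0.276 (0.215 to 0.349) in mature DCs. The highest and the lowest of the 8 types thus lay 8.0-fold apart in WT, and 4.2-fold apart in 6PGDKO, where C1q macrophages had 1.64 (1.51 to 1.78) and mature DCs 0.391 (0.324 to 0.468). As a ratio of UMIs of 2 genes it is a measure for comparing cell types and not the number of chains. C1q macrophages were split again, with 2.34 in the Hes1-led subcluster and 1.51 in the Vcam1-led subcluster of WT, and 2.04 and 1.27 in 6PGDKO. The shallow Ccl8-led subcluster, with 16 and 15 Csf2rb UMIs, had 5.94 (3.47 to 10.8) and 3.73 (2.08 to 7.11). In Langerhans-like cells the ratio was 0.958 (0.830 to 1.10) in WT and 0.663 (0.590 to 0.745) in 6PGDKO, in cycling C1q macrophages 2.20 and 1.41 (1.24 to 1.61), and these were the 2 types whose intervals did not overlap between the libraries. Without cycling cells that held 3 or more DC marker UMIs, the latter pair became 2.35 (1.86 to 2.98) and 1.68 (1.37 to 2.06), which overlap. Without cells that held a T or B cell UMI it became 2.25 (1.79 to 2.84) and 1.54 (1.23 to 1.94), which overlap as well, while Langerhans-like cells had 1.06 (0.883 to 1.27) and 0.651 (0.567 to 0.746), which do not.

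The share of beta chain UMIs that came from Csf2rb2 was 22.3% in classical monocytes, 23.0% in Langerhans-like cells, 23.5% in C1q macrophages, 25.2% in cycling C1q macrophages and 26.2% in Gpnmb-led cells of WT. It was 14.6% (11.2% to 18.5%) in mature DCs and 14.3% in cDC1 of WT, and 16.7% and 13% in 6PGDKO. In every one of the 8 types the intervals of the 2 libraries overlapped.

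**Figure D3:**
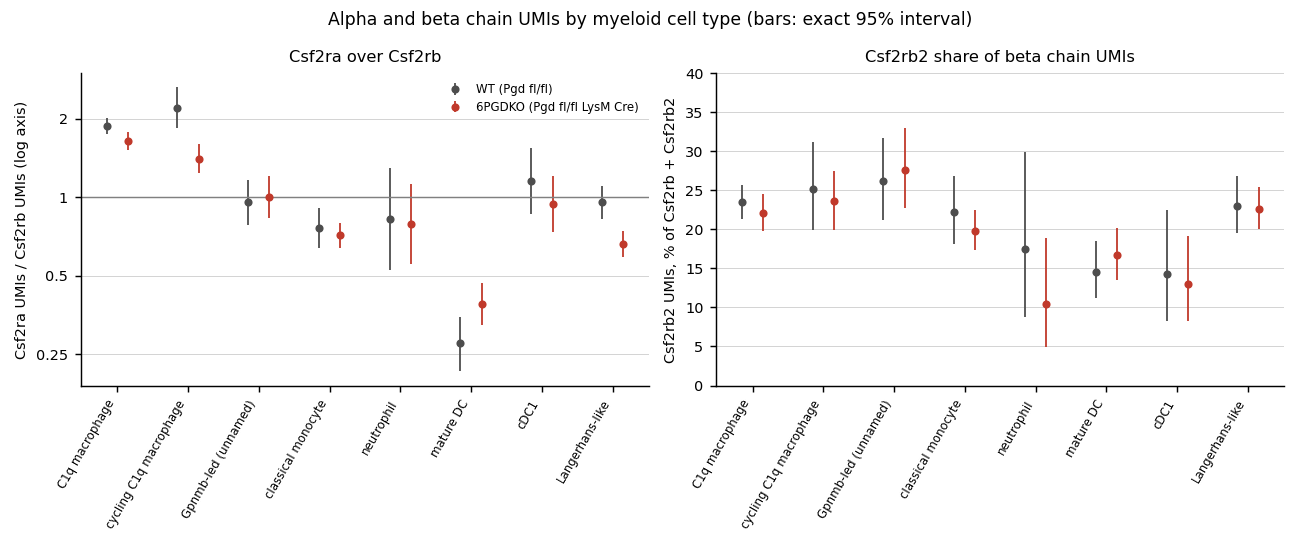
Left, Csf2ra UMIs divided by Csf2rb UMIs (log axis) and right, the percent of beta chain UMIs from Csf2rb2, in the 8 myeloid types of WT (grey) and 6PGDKO (red) with exact 95% intervals. Mature DCs have the lowest ratio in both libraries (0.276 and 0.391) and C1q macrophages and their cycling counterpart the highest.

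Several receptors were seen in the same cells. After thinning, Csf1r and Csf2ra were both seen in 115 of 450 C1q macrophages of WT and 81 of 346 of 6PGDKO, 25.6% and 23.4%, and Csf2ra and Csf2rb in 12.7% and 13.6%. In neutrophils Csf3r and Csf2rb were both seen in 11 of 48 and 23 of 69 cells, 22.9% and 33.3%. In mature DCs, Csf2rb and Flt3 met in 7 of 57 and 4 of 84 cells. Csf1r was seen in too few thinned mature DCs to compare, and without thinning Csf1r and Flt3 were both seen in 4 of 57 and 8 of 85. In Langerhans-like cells Csf1r and Flt3 were both seen in 1 of 102 and 3 of 147 cells. At 1500 UMIs a cell can miss a transcript that it holds, and free RNA can add to the count, so these shares describe detection only.

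Between the genotypes, the receptor levels lay close together. Of 48 pairs of a member and a myeloid type, 37 had at least 50 UMIs, and their log2 ratios (6PGDKO over WT) had a median of 0.06 and ran from -0.51 to 1.22. The interval, which covers counting error only, covered 0 in 25 of the 37, lay above 0 in 7 and below 0 in 5, and 1 ratio passed 1.5-fold. It was clear of 0 for 2 of 5 members in C1q macrophages (20.2% of all genes tested there), 3 of 6 in cycling C1q macrophages (19.5%), 1 of 5 in Gpnmb-led cells (19.1%), 1 of 6 in classical monocytes (15.8%), 1 of 3 in neutrophils (35.7%), 1 of 4 in mature DCs (16.1%), 1 of 3 in cDC1 (12.9%) and 2 of 5 in Langerhans-like cells (14.5%). With cells thinned to 1500 UMIs it was clear of 0 in 2 of 36 pairs, while 15 of the 36 ratios passed 1.5-fold. Unthinned, 0 of 5 members passed 1.5-fold in C1q macrophages, where 6.86% of 8386 genes did. The counts were 0 of 5 in Gpnmb-led cells (13.4% of all genes), 0 of 6 in classical monocytes (11.5%), 0 of 3 in neutrophils (30.9%), 0 of 4 in mature DCs (12.5%), 0 of 3 in cDC1 (11.5%) and 0 of 5 in Langerhans-like cells (9.63%). In cycling C1q macrophages 1 of 6 did, Flt3, where 12.5% of 6845 genes did. With so few genes, these counts set the receptors apart from the background in no type.

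**Figure D4:**
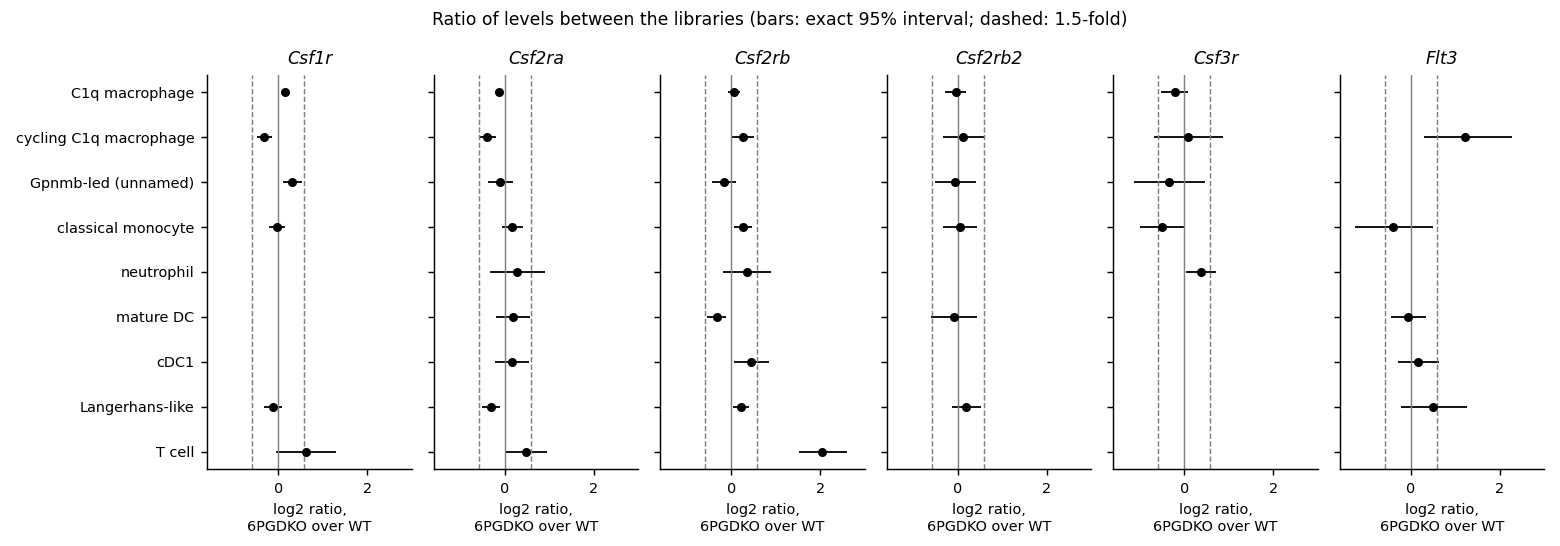
Log2 ratio of the level in 6PGDKO over WT for each receptor gene and cell type with at least 50 UMIs, with exact 95% intervals that cover counting error only. The solid line marks no difference and the dashed lines 1.5-fold in either direction. The 8 myeloid types and T cells are shown. Flt3 in cycling C1q macrophages (1.22), Csf2rb in T cells (2.05) and Csf1r in T cells (0.62) lie outside the dashed lines.

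For Csf1r, the ratio was 0.15 (0.06 to 0.23) in C1q macrophages, 0.32 (0.09 to 0.54) in Gpnmb-led cells, -0.02 (-0.20 to 0.15) in classical monocytes, -0.13 (-0.33 to 0.08) in Langerhans-like cells and -0.31 (-0.49 to -0.13) in cycling C1q macrophages. Macrophage and DC markers moved with the last value. The 10 macrophage markers together were 19543 CPM in WT and 14791 in 6PGDKO there, and their part was not tested. The 10 DC markers were 184 and 460 CPM, and 25 of 73 and 51 of 97 cells held 3 or more DC marker UMIs. This cutoff took no account of depth, a median of 16425 UMIs per cell in WT and 22778 in 6PGDKO. Without the cells past the cutoff Csf1r was 401 and 412 CPM and its ratio 0.04 (-0.19 to 0.27). Flt3 in the same subcluster went from 12 and 51 UMIs, a ratio of 1.22 (0.30 to 2.27), to 2 and 5 UMIs, a ratio of 1.08 (-1.53 to 4.47). Thinned, Csf1r was 0.30 (0.07 to 0.54) in C1q macrophages, 0.06 (-0.58 to 0.70) in Gpnmb-led cells and -0.28 (-0.92 to 0.37) in cycling C1q macrophages.

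Csf2ra was lower in 6PGDKO in C1q macrophages (-0.14, -0.23 to -0.04), in cycling C1q macrophages (-0.39, -0.58 to -0.20) and in Langerhans-like cells (-0.31, -0.51 to -0.12). Without the cycling cells that held 3 or more DC marker UMIs, the value there was -0.16 (-0.42 to 0.10). Macrophage markers in the cycling cells were 19543 and 14791 CPM, and their part was not tested. In classical monocytes the ratio was 0.17 (-0.06 to 0.40). Csf2rb was higher in classical monocytes (0.26, 0.06 to 0.46), cDC1 (0.45, 0.05 to 0.84) and Langerhans-like cells (0.22, 0.04 to 0.40) and lower in mature DCs (-0.33, -0.54 to -0.11). Thinned, the value in classical monocytes was 0.06 (-0.43 to 0.57), in cDC1 1.38 (-0.02 to 2.997), in Langerhans-like cells 0.78 (0.22 to 1.36) and in mature DCs -0.63 (-1.31 to 0.04). In cDC1, 52.2% of the 90 WT UMIs and 46.1% of the 141 6PGDKO UMIs of Csf2rb lay in 5 cells each. T cell markers in cDC1 were 233 and 627 CPM, ILC and NK cell markers 10.05 and 112 and macrophage markers 326 and 510, and 18.8% and 37.8% of cDC1 held a T or B cell UMI. Macrophage markers were 1782 CPM in the mature DCs of WT and 787 in those of 6PGDKO, and 1794 and 1034 in Langerhans-like cells. The mast cell or basophil markers had 2 and 134 UMIs in classical monocytes, where neutrophil markers were 269 and 437 CPM. Without cells that held a T or B cell UMI, the interval was clear of 0 in 8 of the 37 pairs, beside 12 with all cells. What part the markers of the other cell types had in these values was not tested. Csf3r in neutrophils was higher in 6PGDKO by 0.36 (0.03 to 0.70), and 0.16 (-0.22 to 0.55) once neutrophils with a C1q UMI (11 and 23 cells) were left out. Unthinned, all of these differences were under 1.5-fold, a size that 6.86% to 30.9% of all genes exceed in the myeloid types. Thinned, Csf2rb passed it in cDC1, Langerhans-like cells and mature DCs.

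Outside the myeloid types, Csf2rb was higher in the T cells of 6PGDKO. Its level was 5.97 CPM in WT (4.25 to 8.17, 39 UMIs) and 24.7 in 6PGDKO (20.4 to 29.6, 116 UMIs), a log2 ratio of 2.05 (1.51 to 2.61). The T cells of the libraries lay in different clusters, since the cluster led by Lef1 and Tcf7, genes of naive T cells, held 462 of 1174 T cells in WT and 52 of 713 in 6PGDKO. Of 3 members with 50 UMIs there, 2 passed 1.5-fold, Csf2rb and Csf1r (0.62, -0.06 to 1.30), where 11.5% of 9314 genes did. The UMIs sat mainly in 2 of the 5 T cell clusters, with 9 and 56 in the Tnfsf8- and Ccl1-led cluster and 16 and 53 in the cluster led by cell cycle genes, and 48.3% of the 116 lay in 5 cells. The ratio within these clusters was 2.74 (1.71 to 3.94) and 1.5 (0.67 to 2.41). Outside those 2 clusters T cells held 14 and 7 Csf2rb UMIs, 3.64 and 3.88 CPM. After thinning, Csf2rb was seen in 3 of 1146 T cells of WT and 13 of 692 of 6PGDKO, 0.262% and 1.88%. Csf2rb2 followed, with 15 and 32 UMIs, of which 1 and 17 were in the Tnfsf8-led cluster. Markers of other cells were present in these T cells. The 8 mast cell or basophil markers had 9 UMIs in WT and 2605 in 6PGDKO, and 0 and 15 cells held 3 or more of them. Without these cells Csf2rb had 39 and 92 UMIs, a ratio of 1.74 (1.19 to 2.32). The 10 DC markers were 568 and 741 CPM. They include Ccr7 and Itgae, which T cells also express, so their removal also takes out T cells for their own genes. Without T cells that held 3 or more DC marker UMIs (434 and 338 cells), Csf2rb had 18 and 29 UMIs, a ratio of 1.53 (0.63 to 2.46). The 10 macrophage markers were 379 and 487 CPM. Beyond the mast cell marker removal, what part other cells in these barcodes had was not tested.

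In epithelial-like cells, 72 and 94 cells led by Mgp, Krt8 and Krt18, 1 member had 50 UMIs. Csf2ra had 19 UMIs in WT and 61 in 6PGDKO, 22.2 and 46.9 CPM, a ratio of 1.08 (0.31 to 1.90), where 14.7% of 5310 genes passed 1.5-fold. With cells thinned to 1500 UMIs the ratio was -0.35 (-3.25 to 2.55). The 10 macrophage markers were 1422 and 1252 CPM in these cells, with all 10 present in both libraries. The 7 markers of Gpnmb lipid-associated macrophages, which include genes that other cells also express, were 2580 and 4516 CPM. The 7 epithelial markers were 2238 and 3996 CPM. The part of other cells in the Csf2ra difference was not tested.

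Csf1, a ligand of CSF1R, had UMIs in all 12 types of both libraries. It was highest in neutrophils with 451 CPM in WT (57 UMIs) and 398 in 6PGDKO (65 UMIs). In T cells Csf1 was 32.3 and 56.4 CPM, a ratio of 0.80 (0.54 to 1.07). The same T cells held 9 and 2605 UMIs of mast cell or basophil markers, with macrophage markers at 379 and 487 CPM and DC markers at 568 and 741. The DC markers include genes that T cells also express. In mature DCs Csf1 had 7 and 54 UMIs, 9.41 and 44.0 CPM, a ratio of 2.22 (1.08 to 3.61), spread over 5 and 13 cells. Neutrophil markers in the mature DCs were 60.5 and 217 CPM, and macrophage markers 1782 and 787. In classical monocytes Csf1 had 7 and 45 UMIs (1.53, 0.38 to 2.93), where neutrophil markers were 269 and 437 CPM. Mast cell or basophil markers had 2 and 134 UMIs in these monocytes. In cycling C1q macrophages it was higher, at 20.7 and 35.4 CPM from 26 and 81 UMIs (0.78, 0.12 to 1.47). DC markers there were 184 and 460 CPM. In Gpnmb-led cells Csf1 was lower in 6PGDKO, at 57.9 and 37.1 CPM from 41 and 31 UMIs (-0.64, -1.36 to 0.07). The part of other cells in these Csf1 values was not tested. Among the 12 types Csf2, which encodes GM-CSF, was mainly in T cells, with 34.0 and 39.1 CPM from 38 and 42 cells. The unnamed clusters with T cell markers are not in these counts. The 42 Csf2 UMIs of cDC1 in 6PGDKO came from 2 cells. Flt3l was highest in the ILC and NK cells with 52.6 and 64.2 CPM, followed by T cells with 32.8 and 27.9.

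The other ligands were scarce. Il34 had 2 and 3 UMIs in epithelial-like cells and 1 in 6PGDKO monocytes, and Csf3, which encodes G-CSF, had 2 UMIs in the WT groups and 1 in the 6PGDKO groups. In T cells Il3 had 7 UMIs in WT and 0 in 6PGDKO, and Il5 had 3 and 27, in 3 and 15 cells. Of the alpha chains that share the beta chain, Il3ra was found throughout, with 16.0 and 19.4 CPM in C1q macrophages and 26.5 and 37.4 in T cells, while Il5ra was seen mainly in B cells, with 17 and 4 UMIs.

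**Figure D5:**
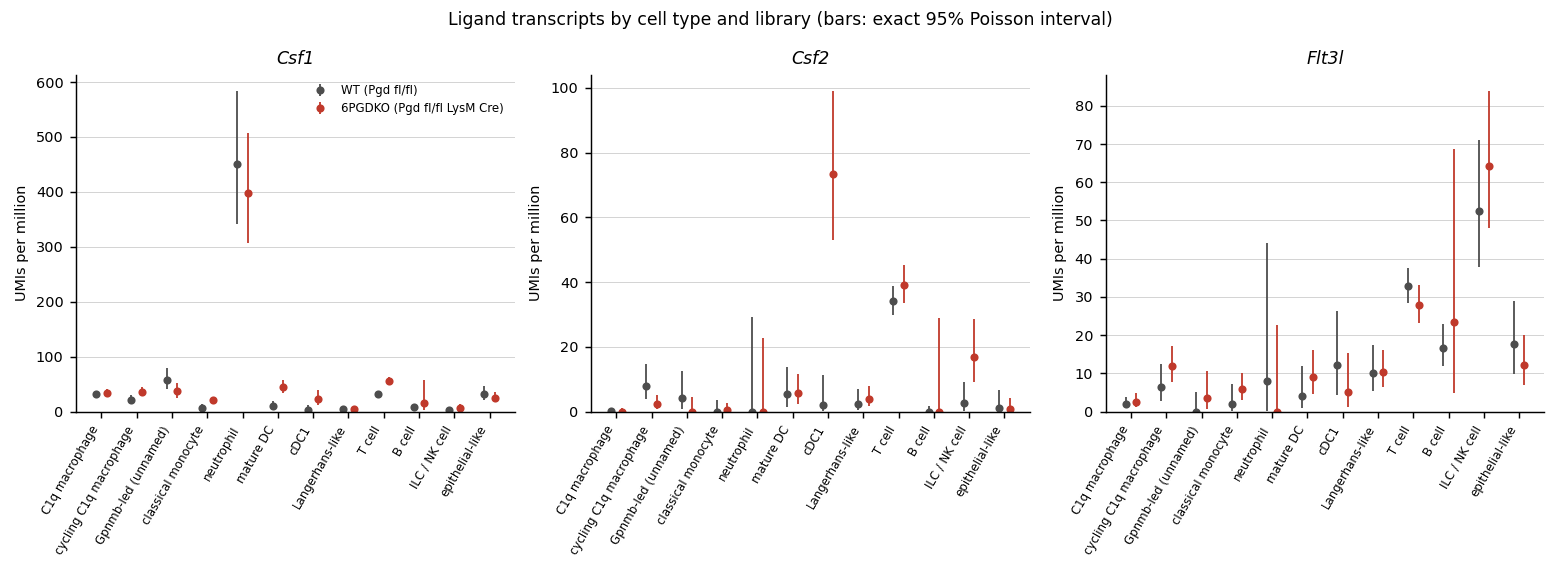
Levels of the ligand transcripts Csf1, Csf2 and Flt3l in CPM (linear axis, own scale per panel) in the 12 cell types of WT (grey) and 6PGDKO (red), with exact 95% Poisson intervals. Csf1 is highest in neutrophils (451 and 398), Flt3l in ILC and NK cells (52.6 and 64.2), and the high Csf2 point of cDC1 in 6PGDKO rests on 2 cells.

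Beyond the receptors, 48 genes of the pathways were followed as ligands, partner chains, signalling molecules, feedback and shedding genes, and transcription factors of the myeloid lineages. In C1q macrophages 1 of the 39 with 50 UMIs passed 1.5-fold, 2.56%, beside 6.86% of all genes, and the list's median log2 ratio was 0.03 beside 0.02 for all genes. In classical monocytes 3 of 38 did, 2 higher and 1 lower (7.89% beside 11.5%), with a median of -0.11 beside 0.03. In neutrophils 0 of 15 did (beside 30.9%), and in Langerhans-like cells 4 of 37 (10.8% beside 9.63%). Mature DCs had the highest share, 9 of 37 higher in 6PGDKO and none lower, 24.3% beside 12.5% of all genes, with a median of 0.20 beside 0.02.

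Among these, Cish, a feedback gene induced by STAT5, was 32.3 CPM in mature DCs of WT and 80.6 in 6PGDKO, from 24 and 99 UMIs, a ratio of 1.32 (0.67 to 2.03). In the same cells the 10 macrophage markers were 1782 CPM in WT and 787 in 6PGDKO, and their part was not tested. In cycling C1q macrophages 6 of 39 pathway genes passed (15.4% beside 12.5%), with Maf, a macrophage transcription factor, at 37.4 and 91.8 CPM (1.30, 0.83 to 1.78). Markers of some other cells were higher there in 6PGDKO and those of others lower. T cell markers were 709 and 1113 CPM, ILC and NK cell markers 31.8 and 224 and DC markers 184 and 460, while B cell markers were 228 and 107 CPM. The macrophage markers were 19543 and 14791 CPM. The plasmacytoid DC list was 627 and 507 CPM, beside 951 and 1008 in the C1q macrophages that were not cycling. A T or B cell UMI was held by 43.8% and 63.9% of the cells, at a median depth of 16425 and 22778 UMIs. The part of these markers was not tested. In T cells 8 of 41 were higher and none lower, 19.5% beside 11.5%, led by Tyrobp, an adaptor of NK and myeloid receptors, at 43.5 and 113 CPM (1.38, 1.17 to 1.59). The mast cell or basophil markers (9 and 2605 UMIs) and the macrophage markers (379 and 487 CPM) were higher in the same T cells. So were the DC markers (568 and 741 CPM), which include genes that T cells also express. The part of these markers was not tested. In the remaining types, 4 of 29 passed in Gpnmb-led cells (13.8% beside 13.4%), 1 of 20 in cDC1 (5% beside 11.5%) and 4 of 27 in epithelial-like cells, 2 higher and 2 lower (14.8% beside 14.7%). There Klf4, a zinc finger factor of monocytes and epithelia, was 290 and 538 CPM (0.89, 0.68 to 1.10). In these cells epithelial markers were 2238 and 3996 CPM, endothelial markers 60.9 and 164, fibroblast markers 385 and 123 and T cell markers 1077 and 702, and their part was not tested.

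Across 15 profiles, the 11 myeloid subclusters and the 4 other types with both libraries pooled, the genes most like each receptor among 10207 genes were Sirpa, Cd68 and Tgfbi for Csf1r (Pearson r of 0.962, 0.961 and 0.944 on log2 of CPM plus 10), Skap2, Spi1 and Cd300c2 for Csf2ra (0.946, 0.941 and 0.939), and Gcnt2, Snx10 and Il1b for Csf2rb (0.949, 0.933 and 0.928). They were Gab2, M6pr and Sh3glb1 for Csf2rb2 (0.948, 0.928 and 0.926), Cd300ld, Gm5150 and Trem1 for Csf3r (0.975, 0.963 and 0.960), and Zfp366, Adam23 and Zbtb46 for Flt3 (0.905, 0.899 and 0.892). Among the members themselves, Csf2rb and Csf2rb2 were most alike with an r of 0.956, followed by Csf2ra with Csf2rb2 (0.897), with Csf2rb (0.882) and with Csf1r (0.877). Flt3 was least like the others, with r from -0.331 (Csf3r) and -0.191 (Csf1r) through 0.15 (Csf2ra) and 0.224 (Csf2rb2) to 0.370 (Csf2rb). These correlations are over cell types that share the same 2 libraries and are descriptions. With 1 CPM added in place of 10, 0 of the 6 receptors kept all 3 genes.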

How the data were processed

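Single-cell RNA-seq was analysed in 2 libraries, 1 per genotype, grouped by the genotype in the labels. The authors deposited filtered matrices of raw UMI counts per gene and cell, made with Cell Ranger 6.1.2 and the mm10 build per the submitters' processing notes, and not normalized. The 12 multiplexing oligos in the matrices were left out. The cell filter asked for 500 to 7500 genes and a mitochondrial share of up to 15% and left 6363 of 6742 barcodes, which in both libraries was more than the study's methods state. Clusters were built with Seurat 5.3.0 in R 4.3.3 (2000 variable genes less the receptors, 30 components, resolution 0.8). Macrophage, monocyte, neutrophil and DC clusters were clustered again, as was an unnamed cluster led by H2-M5 that scored highest on the epithelial list. This gave 19 clusters and 15 subclusters. The Langerhans-like and epithelial lists share Epcam and Cdh1. A cluster was named by the marker list with the widest detection margin, with at least 3 markers in 25% of its cells. No other list, the cell cycle list aside, could hold more of its 10 leading genes. The Ace- and Chil3-led subcluster was so named classical monocyte, with a margin of 38.5 percentage points beside 30.7 for the non-classical list. The naming limits were set after seeing the data. No doublet caller was run. UMIs were summed per type and library in Python 3.11.15 (numpy 2.4.6, scipy 1.17.1, pandas 2.3.3) and scaled to 1000000 UMIs of the type (CPM) with exact Poisson intervals. Ratios have exact conditional intervals, and shares have Clopper-Pearson intervals after thinning to 1500 UMIs, at the 95% level. UMIs of a cell are not independent, so true errors are wider. A ratio was counted at 50 or more UMIs over both libraries and called past 1.5-fold. This step was tested on simulated data.

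All 6 receptors are reported. Ligands were all examined, and other pathway genes were named with at least 100 UMIs in a type and an interval wholly beyond 1.5-fold, up to 5 per type. Some genes that met this rule are not reported here. Likeness is Pearson's r over profiles for genes with at least 200 UMIs, the first 3 being named. The members, marker lists and pathway list were chosen with earlier results of these data known. Alternatives were other clustering genes, resolution 1.6, a stricter filter (1000 genes, 10% mitochondrial), equal cell weights, centring, cells without lymphocyte UMIs and other thinning depths. Removal of cells with markers of other types, and of T cell clusters, was added after seeing the data. Promoter windows came from RefSeq (GRCm38.p6). Those of Csf2rb2 and Flt3 are shown, and those of Csf3r and Csf2ra were searched but are not shown.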

Additional observations from a re-analysis of the deposited data

Results flagged for a closer look

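Csf1r and Csf2rb had log2 ratios (6PGDKO over WT) of opposite sign in different myeloid types, with counting intervals clear of 0 on both sides. Within a single myeloid type, the interval was clear of 0 for 12.9% to 35.7% of all genes tested. How many genes had opposite signs in different types was not counted. Whether the types differ was not tested, since each genotype had 1 library. For Csf1r the ratio was 0.15 in C1q macrophages and 0.32 in Gpnmb-led cells, and -0.31 in cycling C1q macrophages. The last became 0.04 (-0.19 to 0.27) without the cells that held 3 or more DC marker UMIs, so that the opposite sign was lost. That cutoff took no account of depth, a median of 16425 UMIs per cell in WT and 22778 in 6PGDKO. With cells thinned to 1500 UMIs it was 0.30 (0.07 to 0.54), 0.06 (-0.58 to 0.70) and -0.28 (-0.92 to 0.37) in these 3 types. For Csf2rb it was 0.26 in classical monocytes, 0.45 in cDC1 and 0.22 in Langerhans-like cells, and -0.33 in mature DCs. Thinned, these were 0.06 (-0.43 to 0.57), 1.38 (-0.02 to 2.997), 0.78 (0.22 to 1.36) and -0.63 (-1.31 to 0.04). In the cycling C1q macrophages DC markers were 184 CPM in WT and 460 in 6PGDKO, and macrophage markers 19543 and 14791. Macrophage markers in mature DCs were 1782 and 787 CPM. The part of the macrophage markers in the Csf1r and Csf2rb values was not tested.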

How the results depend on the processing

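The 12 levels checked under 2 alternatives moved in 0 of 24 values. Of 300 alternative values of 41 log2 ratios, 271 stayed within the counting interval of the reported ratio, 27 moved beyond it and 2 ratios with intervals clear of 0 changed sign. Most of the 27 moved when each cell was thinned to 1500 UMIs, which leaves fewer UMIs. Under it Csf1r in C1q macrophages was 0.30, Csf3r there -0.62, Csf2rb in classical monocytes 0.059, Csf2rb2 there 0.69, Flt3 in cDC1 1.11, Csf2rb in T cells 3.05 and Csf2ra in epithelial-like cells -0.35, against 1.08 unthinned. Past 1.5-fold were 1 of 37 pairs as reported, 15 of 36 thinned (34 with an interval that covers 0), 3 with cells of equal weight, 3 without cells holding lymphocyte UMIs, 2 at resolution 1.6 and 2 under the stricter filter. Csf1r in cycling C1q macrophages was 0.040 without cells that held 3 or more DC marker UMIs, and Csf2rb in T cells was 0.090 without the Tnfsf8-led cluster and the cluster led by cell cycle genes. Shares moved in 25 of 36 values under other depths or without thinning. Centring on the median of all genes moved 0 of 41 ratios.

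With 1 pooled library per genotype, genotype, pool and library cannot be told apart. No paired analysis was possible because each genotype has 1 library. Neutrophils had the lowest median depth of the 12 types (2156 and 2105 UMIs per cell), and 3 of 6 receptors reached 50 UMIs in them, as in cDC1. Levels are relative to all UMIs of a type. The division of UMIs between Csf2rb and Csf2rb2 is uncertain, and free RNA can add UMIs in every type.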
